A study of Caenorhabditis elegans with 2 samples.

Results

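The genes examined here encode 10 enzymes of the citrate and glyoxylate cycles of Caenorhabditis elegans, and the data are lists of chromatin regions recovered with the nuclear hormone receptor NHR-10. The 10 genes were chosen by name, among the 19973 protein-coding genes of the 6 nuclear chromosomes in the WBcel235 annotation. For each gene every region was taken whose summit, the point of highest signal, lay within 5 kb of a transcript start or inside the gene. The chromatin immunoprecipitation and sequencing (ChIP-seq) was done on whole L4 larvae, with both sexes pooled. The larvae belonged to strain OP239, whose genotype is given as unc-119(ed3) III with wgIs239. The insertion wgIs239 is a transgene for an eGFP fusion of NHR-10, and the unc-119 mutation is shared by both samples. There was 1 group of 2 biological replicates and no second genotype, stage or diet, so no comparison between conditions could be made. Whole animals were used, so a region can come from any tissue in which the transgene is active. Neither another tagged factor nor a control signal was analysed, and a region means only that the authors' list holds it.

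The citrate cycle of the mitochondrion joins acetyl-CoA to oxaloacetate and oxidises the product stepwise, feeding the respiratory chain. The glyoxylate cycle bypasses its decarboxylating steps and lets worms build sugar from stored fat, a route that animals such as mammals lack. Several steps also have a cytosolic enzyme, which works in citrate use, NADPH supply or the exchange of reducing power between compartments. NHR-10 is known to activate genes of an alternative propionate breakdown route in worms short of vitamin B12.

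The authors' lists were ranked by their signal value, with rank 1 for the highest. On the ce11 build, which is WBcel235, replicate 1 had 21319 regions and replicate 2 had 22317. The list called on both replicates together, the pooled list, had 17445 distinct regions. By its deposited name it holds peaks and background, so its weaker regions can be background. The optimal list, which holds the 994 strongest of the pooled regions, ends at rank 994. The lists give no read counts, so depth is unknown and no counting interval can be given. Ranks were compared only as ranks, because the scale of the signal is not stated.

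Of the 10 enzyme genes, 4 had an optimal region by the 5-kb rule, namely cts-1, aco-1, icl-1 and idh-1. Among all protein-coding genes 9.31% had such a region. In a narrower promoter window, covering 1000 bp before a start and 200 bp after it, the same 4 genes had an optimal region, against 2.82% of all genes. All 10 had at least 1 region in the pooled list, as did 69.8% of all genes. The median number of pooled regions per gene was 6.5 for the enzymes and 1 over all genes, with a median searched length of 10001 bp in both. The strongest pooled region per gene had a median rank of 1133 for the enzymes and 9520 over all genes, counting a gene without a region as ranked behind the last. No test was made over the list, since its members were chosen by name with earlier results of these data known.

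The 4 genes with an optimal region shared a site close to their own start. The sequences around these summits are shown because they are the sites nearest to the starts of the enzymes themselves. Each is 101 bases of the plus strand of WBcel235, centred on the summit, with capitals marking matches to the motifs searched. The cts-1 site is at chrIII:10216902-10217002, the aco-1 site at chrX:11339658-11339758, the icl-1 site at chrV:728018-728118 and the idh-1 site at chrIV:9441110-9441210. All 4 windows lie between genes.
cts-1: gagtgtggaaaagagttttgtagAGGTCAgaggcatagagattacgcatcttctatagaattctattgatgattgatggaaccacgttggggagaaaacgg
aco-1: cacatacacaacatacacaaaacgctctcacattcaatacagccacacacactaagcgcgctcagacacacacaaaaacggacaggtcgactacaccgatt
icl-1: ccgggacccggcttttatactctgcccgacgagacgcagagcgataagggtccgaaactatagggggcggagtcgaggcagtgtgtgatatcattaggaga
idh-1: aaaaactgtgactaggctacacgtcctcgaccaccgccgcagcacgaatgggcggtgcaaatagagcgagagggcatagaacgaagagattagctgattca

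cts-1 encodes citrate synthase, the enzyme that starts the citrate cycle in the mitochondrion. The gene lies at III:10214771-10216635 on the minus strand. Its promoter held 2 overlapping optimal regions, ranked 310 and 311, with signal values of 77.05 and 77.04. Their summits lay 317 and 524 bp upstream of the start. The strongest overlapping region ranked 1088 in replicate 1, with its summit 307 bp upstream, and 108 in replicate 2, with its summit 518 bp upstream. The promoter site was thus among the strongest in replicate 2 and lower in replicate 1, which had a further region there, of rank 3482, with its summit 522 bp upstream. A stronger region, of rank 138, lay at the other end of the gene. Its summit fell in the 3' UTR of cts-1, 1770 bp downstream of the start, and it ranked 380 in replicate 1 and 74 in replicate 2. The nearest start to it was that of best-18, a bestrophin family gene, 898 bp away.

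aco-1 encodes the cytosolic aconitase, related to the iron regulatory protein of mammals. The gene lies at X:11339874-11343327 on the plus strand. It had 1 optimal region, of rank 593 and signal 59.97, with the summit 166 bp upstream of the start. That region ranked 1061 in replicate 1 and 628 in replicate 2, and its summit shifted by 2 bp in replicate 1 and by 31 bp in replicate 2. Replicate 1 placed a region inside the gene higher. That intron site, 758 bp downstream of the start, ranked 753 in replicate 1, 4706 in replicate 2 and 2046 in the pooled list.

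icl-1 encodes the glyoxylate cycle enzyme of the worm, which joins isocitrate lyase and malate synthase in a single protein. The gene lies at V:724332-728004 on the minus strand and had 6 optimal regions, none overlapping another, over 7338 bp from the first summit to the last. Only 9 protein-coding genes (0.0451%) had 5 or more optimal regions by this rule, and icl-1, idh-1 and the icl-1 neighbour srh-2 were among them. The 6 regions of srh-2 are the same as those of icl-1, so this cluster is counted under both genes. The most at any gene was 7, at din-1. The share with 3 or more was 0.426%, and cts-1, icl-1 and idh-1 reached it. The icl-1 start site, 64 bp upstream, ranked 350 with a signal of 74.02. It ranked 1714 in replicate 1 and 178 in replicate 2. The same summit lay 233 bp upstream of srh-2, a gene of the chemoreceptor family srh on the opposite strand. The site thus lies in the promoter windows of both genes.

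The strongest region at any of the 10 enzymes was also at icl-1 but lay 3567 bp upstream of its start. It had rank 25 and a signal of 188.9, with rank 33 in replicate 1 and rank 23 in replicate 2. Its summit was 75 bp upstream of a srh-2 start inside a longer srh-2 transcript. The next, of rank 38 and signal 152.2, lay beyond the other end of icl-1, 281 bp upstream of the F-box gene fbxb-72. Its ranks were 35 in replicate 1 and 64 in replicate 2. These strongest sites ranked 64 or higher in both replicates, unlike the site at the icl-1 start. Introns of srh-2 also held the sites of rank 103, 1383 bp upstream of icl-1, and of rank 382, 2447 bp upstream. The former ranked 190 and 96 in replicates 1 and 2, and the latter 309 and 608. The remaining optimal site, of rank 768, lay in an icl-1 intron 964 bp downstream of a start and ranked 984 and 464. In that last case the best-ranked region of replicate 1 covered 42.7% of the pooled region. Of the 6 regions, 2 had icl-1 as the gene of the nearest start.

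idh-1 encodes the cytosolic isocitrate dehydrogenase, a source of NADPH. The gene lies at IV:9439078-9441107 on the minus strand and had 5 optimal regions over 5776 bp. The start site, 53 bp upstream, had rank 667 and signal 57.42. In replicate 1 its rank was 2397 and in replicate 2 it was 417. The strongest region there, of rank 125 and signal 103.4, lay 3495 bp upstream of idh-1 and 562 bp upstream of F38E11.9. It ranked 86 in replicate 1 and 245 in replicate 2. A region of rank 248 overlapped it, with its summit in the 3' UTR of hsp-12.3, a small heat shock protein gene. In replicate 1 a separate region there ranked 294, and in replicate 2 one ranked 366. The region of rank 965, near the end of the optimal list, had its summit in a coding exon of the neighbour F59B8.1. It lay 368 bp downstream of the start of a short idh-1 transcript and ranked 911 and 1295.

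The intergenic idh-1 site 1236 bp upstream of the start differed most between the replicates. It had rank 504 and a signal of 63.63 in the optimal list. It ranked 144 in replicate 2 but 15997 in replicate 1. The replicate regions covered 85.6% and 88.2% of it, so the ranks refer to the same place. With the icl-1 site of rank 382 it was 1 of the 2 member windows with an E-box match, and both also held a TGATAA match, so their sequences are given in the same form. The idh-1 site is at chrIV:9442293-9442393 and the icl-1 site, in a srh-2 intron, at chrV:730401-730501.
idh-1 distal: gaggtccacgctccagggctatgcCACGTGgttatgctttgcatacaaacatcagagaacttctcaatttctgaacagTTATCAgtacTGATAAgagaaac
icl-1 distal: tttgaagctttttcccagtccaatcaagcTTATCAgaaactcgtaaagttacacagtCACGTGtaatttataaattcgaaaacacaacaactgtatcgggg

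**Figure D1:**
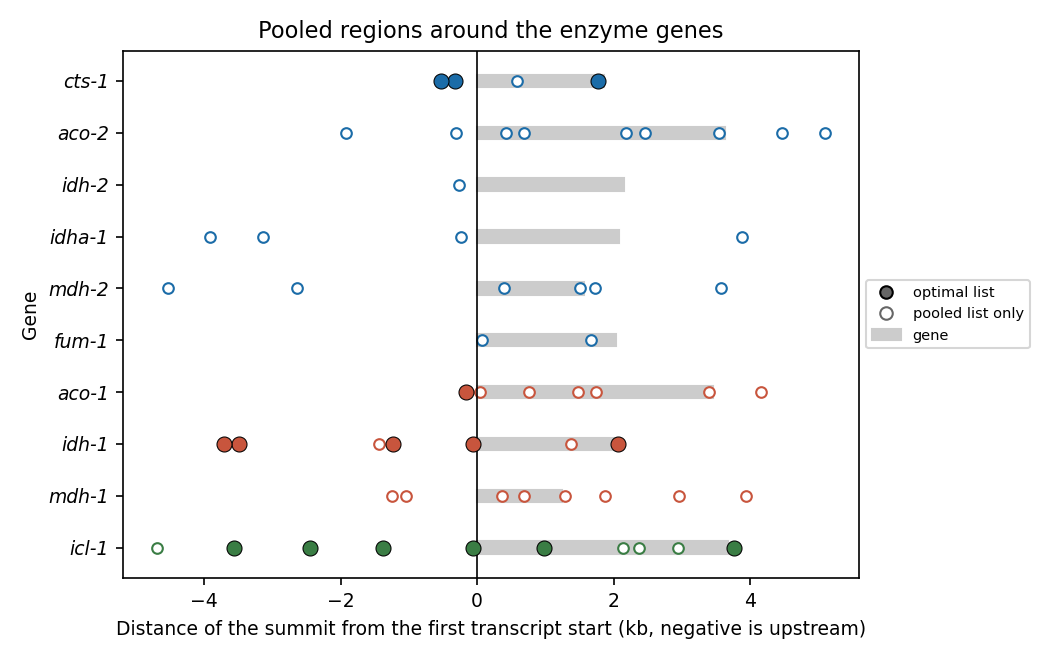
Positions of pooled regions at the 10 enzyme genes, as the distance of each summit from the first transcript start in kb, with negative values upstream. Filled points are optimal regions and open points are in the pooled list only; grey bars are the genes. The 15 filled points lie at cts-1, aco-1, idh-1 and icl-1 alone, and icl-1 has 6 of them.

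The motifs searched in these sites were AGGTCA, the core element of many nuclear receptors, TGATAA and AGATAA, read by GATA factors of the intestine and other tissues, and CACGTG, an E-box. Each was looked for on both strands within 50 bp of the summit, and none of the 4 overlaps another in these windows. AGGTCA occurred in 1 of the 15 optimal windows at the enzymes (6.67%), at cts-1, 27 bp from the summit to the first base of the match, against 3.52% of all 994 optimal windows. TGATAA occurred in 2 of 15 (13.3%), against 18.1% of all, AGATAA in 2 of 15 against 7.85%, and CACGTG in 2 of 15 against 7.95%. The aco-1, icl-1 and idh-1 start sites held none of the 4 motifs in this window. Within 100 bp of the summit, a width chosen after seeing the data, TGATAA occurred in 4 of 15 windows (26.7%) against 32.2% of all optimal windows and AGATAA in 4 of 15 against 15.0%. AGGTCA stayed at 1 of 15 against 6.04%, and CACGTG at 2 of 15 against 13.6%, so the shares of AGGTCA and CACGTG were near those of all optimal windows at this width. A match describes letters only, and no test was made of these shares. The median GC content of the 15 windows was 41.6%, that of all optimal windows 44.6% and that of all pooled windows 37.6%. The start sites of icl-1 (56.4%), idh-1 (52.5%) and aco-1 (46.5%) were above all of these medians. So were the distal icl-1 window of rank 25 (52.5%) and the distal idh-1 window of rank 125 (53.5%). The cts-1 promoter windows of ranks 310 and 311 had 41.6% and 44.6%. Every other window outside the enzymes' own promoters was below the 44.6% of all optimal windows, from 30.7% to 43.6%, both at idh-1.

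Of the 15 optimal regions, 8 had the enzyme gene itself as the nearest protein-coding start and 5 lay in its promoter window. No matching share over all optimal regions was computed for these counts. By annotation 8 summits were intergenic (53.3%, against 60.4% of all optimal summits) and 4 intronic (26.7% against 25.8%). A further 2 were in 3' UTRs (13.3% against 5.73%) and 1 in a coding exon (6.67% against 3.82%). Merging overlapping regions left 13 sites. The other 7 regions lay within the window of an enzyme gene but nearer to the start of another gene.

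The other 6 enzymes had weaker regions. mdh-1, the cytosolic malate dehydrogenase gene, came closest, with a pooled region of rank 1021 and signal 49.29, just outside the optimal list. The idh-1 region of rank 965, with a signal of 50.29, was the member region just inside. The mdh-1 summit lay 1046 bp upstream of mdh-1 and 725 bp upstream of F46E10.3. It ranked 283 in replicate 1 and 4762 in replicate 2, so only replicate 1 placed it high. The promoter window of mdh-1 held no pooled region.

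aco-2 encodes the mitochondrial aconitase and has several transcript starts. Its strongest pooled region, of rank 1245, lay beyond the gene, and the nearest start was that of C06G4.4, 1008 bp away. That region ranked 718 in replicate 1 and 5139 in replicate 2. Another, of rank 1301, lay in a coding exon of C06G4.4 and ranked 2144 and 994. Near the aco-2 starts replicate 1 had a region of rank 467, with its summit 23 bp upstream of an internal start. The pooled region with its summit at that place had rank 7405, and a replicate 2 region of rank 7236 overlapped only 2.12% of it. The stronger pooled region beside it had rank 5140 and lay 294 bp downstream of a start. That replicate 2 region covered 66.5% of it, and the replicate 1 region of rank 467 covered 35.1%. Replicate 1 also had a region of rank 832, with its summit 278 bp upstream of the internal start. This one overlapped most of the pooled region of rank 5140.

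mdh-2, the mitochondrial malate dehydrogenase gene, had its strongest pooled region, of rank 1419, just past the end of the gene, 1722 bp downstream of the start. It ranked 1132 in replicate 1 and 898 in replicate 2, although the region of replicate 1 covered 45.3% of it. No list held a region in the mdh-2 promoter window. fum-1, which encodes fumarase, had a region of rank 3366 at its start, with the summit 76 bp downstream in a coding exon. The overlapping regions ranked 1341 in replicate 1 and 14985 in replicate 2, the latter covering 42.7% of it. The fum-1 site was thus much higher in replicate 1, and the match in replicate 2 was a partial one.

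Among the 10 enzymes, idh-2 and idha-1, for mitochondrial isocitrate dehydrogenases, had the lowest-ranked strongest regions in the pooled list and in replicate 1. In replicate 2 the strongest region of fum-1 was lower, at rank 9469. idh-2, for the NADP-linked enzyme, had 1 pooled region, of rank 7983, 259 bp upstream of its start. The matching regions ranked 11585 in replicate 1 and 5890 in replicate 2. These, the highest-ranked matches, covered 30.2% and 64.2% of the pooled region and did not overlap each other. Replicate 2 also had a region of rank 6872 there, with its summit 182 bp upstream of the start. The replicate 1 region covered 48.3% of that one. idha-1 encodes a subunit of the NAD-linked enzyme that turns the cycle. Its strongest pooled region had rank 6461 and lay 3878 bp downstream of its start, in the 3' UTR of edc-3, and ranked 18193 and 6960. The region 238 bp upstream of idha-1 had rank 10388 and no counterpart in replicate 1. Regions ranked as high as those of idh-2 and idha-1 were common, found at 44.4% and 38.3% of all protein-coding genes by the same rule. For icl-1 that share was 0.335%, for idh-1 1.42%, for cts-1 1.6% and for aco-1 5.83%.

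**Figure D2:**
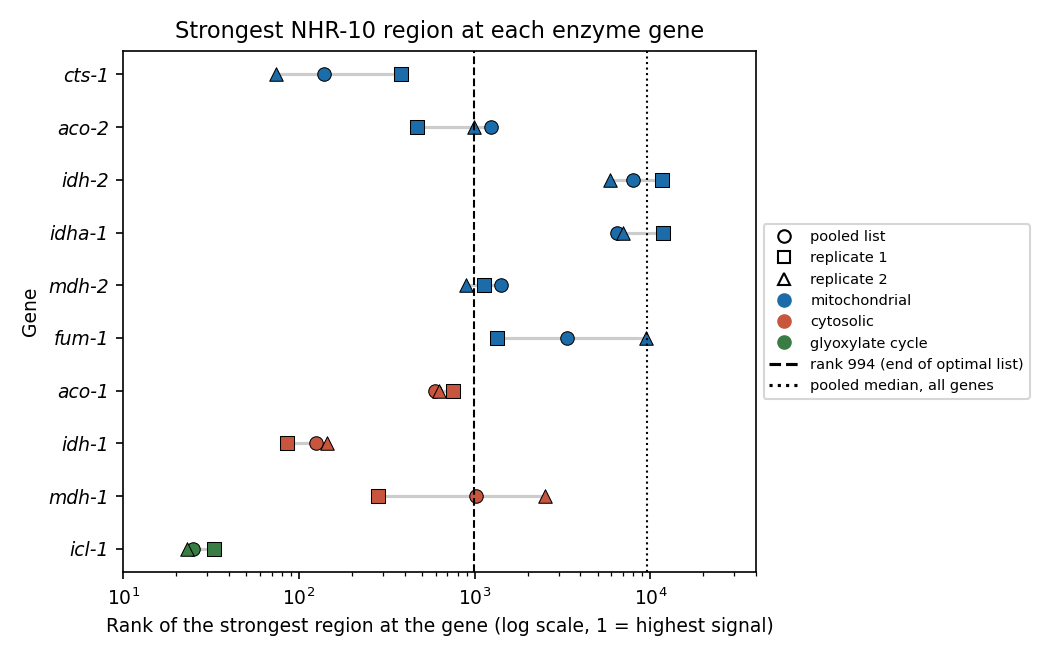
Rank of the strongest region by the 5-kb rule at each enzyme gene in the pooled list (circles), replicate 1 (squares) and replicate 2 (triangles), on a log axis where 1 is the highest signal. The dashed line is rank 994, the end of the optimal list, and the dotted line the median pooled rank of 9520 over all protein-coding genes. All 3 symbols lie left of the dashed line for cts-1, aco-1, idh-1 and icl-1 only.

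Between compartments the ranks overlapped. The compartments were assigned from general knowledge of these enzymes, not from the files, and fum-1 was counted as mitochondrial by choice. Of the 6 mitochondrial enzymes (cts-1, aco-2, idh-2, idha-1, mdh-2 and fum-1), 1 had an optimal region, and of the 3 cytosolic enzymes (aco-1, idh-1 and mdh-1), 2 had one. icl-1 was kept apart as the enzyme of the glyoxylate cycle. The strongest pooled region ranked 138 to 7983 at mitochondrial enzymes, with a median of 2392.5, and 125 to 1021 at cytosolic enzymes, with a median of 593. aco-1 and mdh-1 thus fell inside the range of the mitochondrial genes, and idh-1 ranked just above cts-1. The cytosolic median was ahead in each replicate, at 283 against 1236.5 in replicate 1 and 628 against 3442 in replicate 2. With 3 genes on one side, and genes not being replicates, the difference was given no test.

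The same step could be compared across compartments at 3 places. For aconitase the cytosolic aco-1 had the higher pooled rank (593 against 1245 for aco-2), but in replicate 1 the order was the opposite, with 753 for aco-1 and 467 for aco-2. For isocitrate dehydrogenase idh-1 was far ahead of idh-2 in the pooled list (125 against 7983), in replicate 1 (86 against 11585) and in replicate 2 (144 against 5890). For malate dehydrogenase mdh-1 led mdh-2 in the pooled list (1021 against 1419) and in replicate 1 (283 against 1132), and mdh-2 led in replicate 2 (898 against 2512). Only the isocitrate dehydrogenase pair therefore kept its order in the pooled list and both replicates. All these ranks are of the strongest region in each list, which need not be the same site or nearest to the enzyme's own start. For idh-1 the pooled and replicate 1 ranks are of the site 3495 bp upstream, nearest to F38E11.9. The replicate 2 rank is of the site 1236 bp upstream, which ranked 15997 in replicate 1.

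The replicates placed mostly the same enzymes among their strongest regions. Taking the 994 strongest regions of each replicate, 6 of the 10 genes had a region in replicate 1, against 9.34% of all genes, and 6 in replicate 2, against 8.97%. In both replicates 5 had one, against 5.82%. These were cts-1, aco-1, aco-2, icl-1 and idh-1, not always with the same region. aco-2 was counted by different regions, of rank 467 in replicate 1 and rank 994, the last one taken, in replicate 2. mdh-1 was added by replicate 1 and mdh-2 by replicate 2. Of the 15 optimal regions, 8 (53.3%) overlapped one of the 994 strongest of both replicates, 6 of replicate 2 only, 1 of replicate 1 only and 0 of neither. Over all optimal regions these shares were 54.0% for both, 19.6% for replicate 2 only and 20.9% for replicate 1 only. None of the 5 optimal regions in an enzyme's own promoter window was among the 994 strongest of replicate 1. They ranked 1061 to 2397 there, the first not far below the cut, and 108 to 628 in replicate 2. The cts-1 regions of ranks 310 and 311 share their replicate counterparts, so they are not separate cases. The matching share over all optimal regions in promoter windows was not computed, so this is not shown to be particular to the enzymes.

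The median absolute difference between the replicate ranks was 384 over the 15 optimal regions at the enzymes and 395 over the 992 optimal regions with a counterpart in both. The larger of the replicate ranks was a median of 2.85 times the smaller at the enzymes and 2.27 times over all. Replicate 2 gave the higher rank in 10 of the 15 (66.7%) and in 49.0% of all. Of the 58 pooled regions at the enzymes, 51 had a counterpart in both replicates, with a median difference of 3604, against 3396 over all pooled regions with one, and a median ratio of ranks of 2.61 against 1.99. For the strongest pooled region of each enzyme the median difference was 2427. It was smallest at icl-1, 10 ranks, followed by idh-1 with 159, mdh-2 with 234, cts-1 with 306 and aco-1 with 433. At the other 5 genes it ran from 4421 at aco-2 to 13644 at fum-1. Such a difference is bound to be small where both ranks are high. The ratio of the larger rank to the smaller gave another order. It was 1.26 at mdh-2, 1.43 at icl-1, 1.69 at aco-1, 1.97 at idh-2 and 2.61 at idha-1. At idh-1 it was 2.85, at cts-1 5.14, at aco-2 7.16, at fum-1 11.2 and at mdh-1 16.8. Overlapping pooled regions can share a replicate region, as at the cts-1 promoter, so these differences and ratios are not independent of each other.

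**Figure D3:**
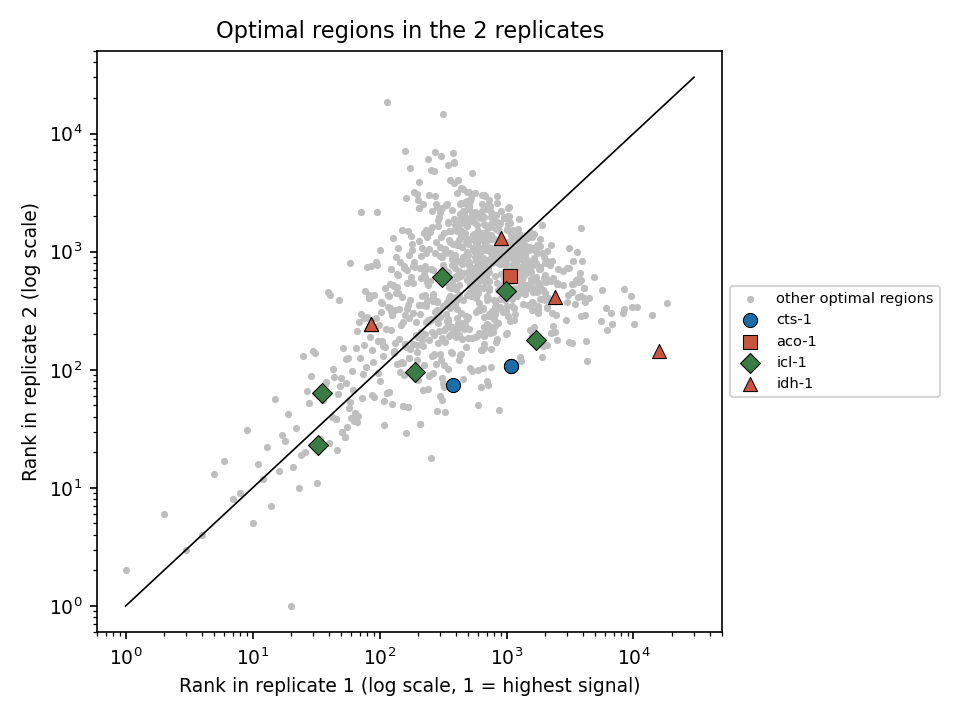
Rank in replicate 1 against rank in replicate 2 for optimal regions, on log axes, with grey points for regions away from the enzyme genes and coloured symbols for those at cts-1, aco-1, icl-1 and idh-1; the line marks equal ranks. Below the line replicate 2 gave the higher rank, as in 10 of the 15 enzyme regions, and the idh-1 site ranked 15997 and 144 lies farthest from the line among them. Regions that share replicate counterparts are drawn on top of each other.

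The rest of the citrate cycle was described by 16 further genes, for the other isocitrate dehydrogenase subunits, the 2-oxoglutarate dehydrogenase complex, succinyl-CoA ligase and succinate dehydrogenase. Of these, 2 (12.5%) had an optimal region by the 5-kb rule, against the 9.31% of all genes, and 0 in the promoter window. At idhb-1, which encodes an isocitrate dehydrogenase subunit, the region had rank 106, lay 256 bp upstream of the neighbour sym-4, and ranked 129 and 145. At mev-1, the gene of a succinate dehydrogenase subunit known for its effect on lifespan, the region had rank 869. It lay in a coding exon of ttr-15 and ranked 9675 and 340. The replicate 1 match was a partial one, covering 45.0% of the pooled region with its summit shifted by 231 bp. dld-1, the gene of the dihydrolipoamide dehydrogenase shared by several complexes, missed the optimal list with a region of rank 1001. The summit lay 307 bp upstream of dld-1 but nearer to the start of nspg-9, 250 bp away. The region ranked 4129 in replicate 1 and 507 in replicate 2. The median rank of the strongest pooled region was 1984.5 for the 16 genes, between the 1133 of the 10 enzymes and the 9520 of all genes.

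**Figure D4:**
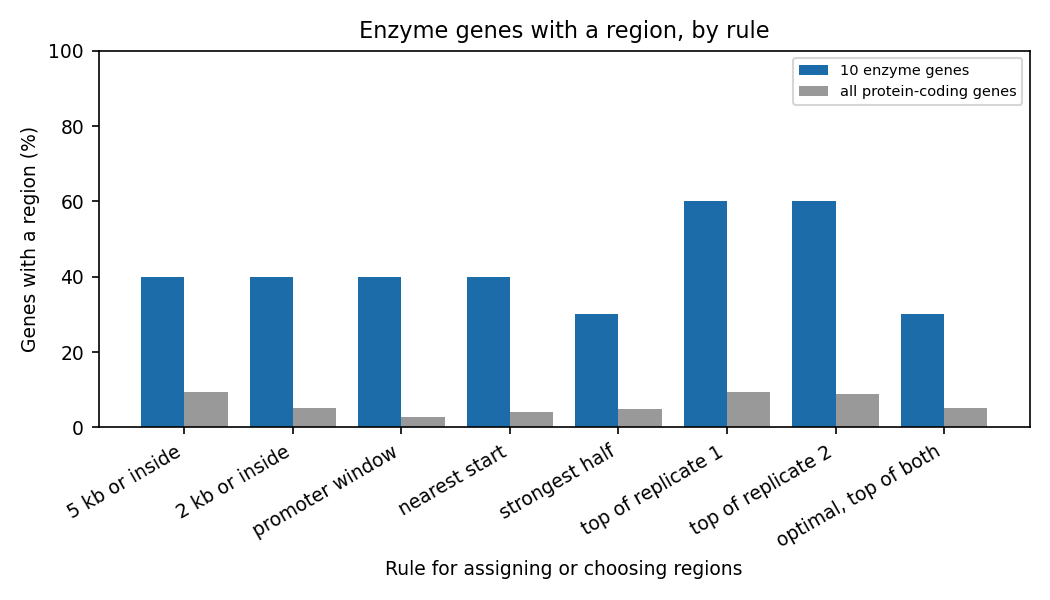
Share of the 10 enzyme genes (blue) and of all protein-coding genes (grey) with a region, in percent, for different ways of assigning regions to genes or choosing the regions. The blue bars stand at 3, 4 or 6 of 10 genes under every rule shown, while the grey bars drawn range from 2.82% in the promoter window to 9.34% for the 994 strongest regions of replicate 1. Overlap of the whole region, at 9.67% of all genes, is not drawn.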

How the data were processed

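ChIP-seq libraries of eGFP-tagged NHR-10 from L4 larvae formed 1 group of 2 replicates, numbered as in the labels. The deposited narrowPeak lists on ce11 were used: optimal, pooled, replicate 1 and replicate 2. Per the deposited descriptions they came from the replicate alignments and the same control alignment. Each region's signal value is the authors', as deposited, with its scale not stated. The optimal list was thresholded by the irreproducible discovery rate, as its deposited name states. The value of that threshold, the caller and the aligner are not named in any source used here. The pooled list is, by its deposited name, the peaks and background used as input for the irreproducible discovery rate. Lists on ce10 were not used.

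The 2 repeated entries of the pooled list were counted once. Regions were ranked by signal within each list. Genes came from Ensembl release 115 (WBcel235) and sequence from the RefSeq copy of that assembly. A replicate region was matched to a pooled region by at least 1 bp of overlap, and the highest-ranked match was taken. Named genes were all 10 members, the rest of the cycle by a list, and neighbours with the nearest start. Members, lists and motifs were chosen with earlier results of these data known. No test was made, since genes are not replicates. Assignment was tested on simulated data. Scripts used Python 3.11.15, pandas 2.3.3 and numpy 2.4.6.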

Additional observations from a re-analysis of the deposited data

How the results depend on the processing

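The count of 4 enzyme genes with an optimal region was 4 within 2 kb, in the promoter window, by overlap of the whole region and by nearest start. It was 3 with the 497 strongest optimal regions, where aco-1 dropped out, and 6 with the 994 strongest of either replicate alone. In replicate 2 aco-2 was counted only by the region of the last rank, 994. The count was also 3 with optimal regions among the 994 strongest of both replicates, an alternative chosen after seeing the data. The share of all genes, 9.31%, moved to 5.1% within 2 kb, 2.82% in the promoter window, 4.04% by nearest start, 4.92% with the 497 strongest and 5.18% with those supported in both, as fewer places or regions were counted. The median best rank of the enzymes, 1133, became 4253 in the promoter window and ranged from 610 to 946 with 1 replicate left out. The lead of cytosolic over mitochondrial medians, 1799.5 ranks, was 5894.5 in the promoter window, 953.5 to 2814 with 1 replicate left out, and 826 with icl-1 among the mitochondrial enzymes or with fum-1 left out. It kept its sign in all 6. The median replicate difference at the strongest sites, 2427, was 1150 within 2 kb, over 9 genes, and 433 when a replicate region had to cover 50% of the pooled region, which left 7 genes. idh-2, mdh-2 and fum-1 dropped out there. With motifs searched within 100 bp, a width chosen after seeing the data, windows at the enzymes with TGATAA and with AGATAA each rose from 2 to 4, and the shares of all optimal windows moved to 6.04% for AGGTCA, 32.2% for TGATAA, 15.0% for AGATAA and 13.6% for CACGTG, as more bases were searched. Depth is unknown and the pooled list includes background, so a weak region cannot be told apart from background or shallow sequencing. No paired analysis was possible because there is 1 group only.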
